A study of Mus musculus with 24 samples.

Results

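The regions described here lie in an interval of 450 kb on mouse chromosome 1, from 189.30 to 189.75 Mb on GRCm39, which holds the genes Ptpn14 and Smyd2. Every row of the deposited H3K4me3 region lists that overlapped the interval was taken, 41 of 63425 in all. Of these, 31 were listed as unique to the wild type (WT regions), 10 as common to both conditions (common regions) and 0 as unique to the knockdown (KD regions). H3K4me3 was profiled by ChIP-seq in splenocytes of leukemic Eµ-TCL1A mice on the C57BL/6 strain, so the transgene that drives the leukemia was carried in all groups. The wild-type cells had KDM1A intact and no treatment, and the other cells carried a KDM1A knockdown. The sources used here do not state how the knockdown was made or the age and sex of the mice. Each condition had 6 immunoprecipitated and 6 input libraries, from 3 biological replicates with 2 technical replicates each. The deposited lists compare the conditions as a whole and hold no value per library, so no read depth, replicate spread or test can be given for any difference below. The splenocytes were profiled in bulk, and fewer cells that carry the mark cannot be told apart from less mark per cell. The cell type was not checked against marker genes, since the lists hold no expression values.

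H3K4me3 marks the start sites of active and poised genes, most of which lie in DNA rich in CpG dinucleotides. KDM1A, also called LSD1, is a demethylase that acts on mono- and dimethylated H3K4. Ptpn14 encodes a non-receptor protein tyrosine phosphatase that binds the coactivator YAP and restrains it in the Hippo pathway, which limits cell growth. Smyd2 encodes a lysine methyltransferase with a SET and a MYND domain, which methylates histones and other proteins, p53 among them. In the RefSeq gene table of GRCm38.p6, Ptpn14 and Smyd2 are neighbouring protein-coding genes. In the order of their lower coordinates, that table lists the non-coding genes Gm51739 and Gm26574 and the pseudogene Gm30280 between them. The next protein-coding gene on the side of Ptpn14 is Cenpf, which encodes a kinetochore protein. On the side of Smyd2 it is Prox1, which encodes a homeobox transcription factor. The long non-coding genes Gm39736 and Gm30446 come between Smyd2 and Prox1 in that order. Gene ends were not compared, so genes listed in between may overlap their neighbours.

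The DNA before both gene starts is shown because H3K4me3 is typical of start sites of this composition. The sequences are the 250 bases before each start in RefSeq's GRCm38.p6, 5′ to 3′ in the direction of transcription, with each CpG in capitals. Ptpn14 is on the plus strand and Smyd2 on the minus strand of chromosome 1.
Ptpn14: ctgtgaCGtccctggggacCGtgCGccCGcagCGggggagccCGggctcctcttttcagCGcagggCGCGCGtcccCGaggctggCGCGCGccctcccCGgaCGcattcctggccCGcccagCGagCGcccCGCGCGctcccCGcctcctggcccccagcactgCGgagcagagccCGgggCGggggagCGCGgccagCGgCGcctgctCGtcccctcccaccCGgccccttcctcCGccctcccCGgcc
Smyd2: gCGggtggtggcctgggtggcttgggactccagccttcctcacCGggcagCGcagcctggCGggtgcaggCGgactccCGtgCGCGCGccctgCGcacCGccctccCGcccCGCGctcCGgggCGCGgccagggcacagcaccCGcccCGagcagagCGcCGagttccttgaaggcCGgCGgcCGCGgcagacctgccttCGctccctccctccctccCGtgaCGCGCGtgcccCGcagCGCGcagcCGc
The motif counted was CG, which reads the same on both strands. The sequence TATAAA was also searched, in the direction shown, and was in neither promoter. Each of the 2 promoters held 34 CpG dinucleotides, against a median of 6 over 32841 promoter windows of the same length, and 3.53% of these windows held 34 or more. The GC content was 80.8% for Ptpn14 and 78.8% for Smyd2, against a median of 52.4%. The gene table and the region lists use different builds, so no region was assigned to a start, an exon or an intron.

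The interval was selected on the same lists, chosen by its many WT regions and lack of KD regions, so their number and direction are a description and not a finding. All 31 of its one-sided regions (those unique to 1 condition) were WT regions. On the 19 autosomes, 25.8% of 19847 one-sided regions were WT regions, and WT regions made up 8.20% of all rows. The block ran from 189435639 to 189655486, a span of 219.8 kb, of which WT regions covered 16.6% (36398 bp) and common regions 1.08% (2381 bp). It held 7.91% of the WT regions of chromosome 1 and 12.5% of their length. WT regions made up 33.0% of 1188 one-sided regions on this chromosome with the block and 31.2% of 1157 without it. Ptpn14 and Smyd2 were placed within about 189.46 to 189.66 Mb when the interval was chosen, and 28 of the 31 WT regions overlapped that stretch.

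**Figure D1:**
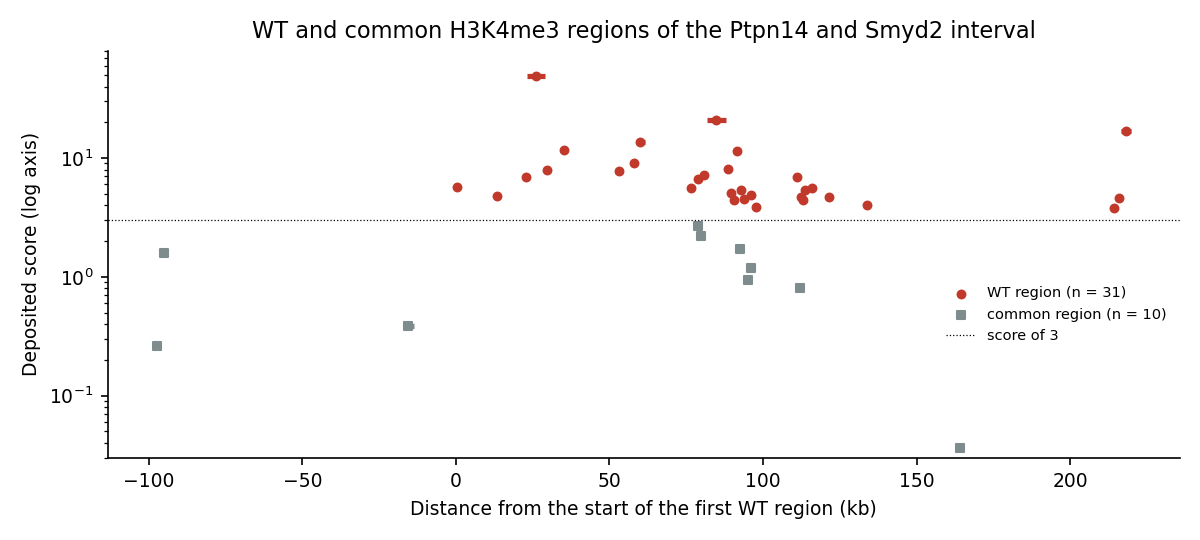
Deposited score (log axis) of the 31 WT regions (red circles) and 10 common regions (grey squares) against distance in kb from the start of the first WT region. Each line spans its region, and the dotted line marks a score of 3, which separates the lists. WT regions fill the first 134.1 kb in strings and return at 214.1 kb, after a gap of 79969 bp with 1 common region in it.

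The score is the authors' own value for each region and is not defined in the file headers. It exceeds 3 in every one-sided region and stays below 3 in every common region, and it gives no direction for a common region. The highest score of the block, 48.9, belonged to a WT region of 6002 bp at 189458713 to 189464714. Only 5 autosomal WT regions scored higher and 8 were longer. This region covers the lower of the approximate gene limits, 189.46 Mb, which is the Ptpn14 side of the pair. The second score, 20.9, belonged to the longest region, 6335 bp at 189517255 to 189523589, in the interior of the block. The third, 16.8, belonged to the last WT region, 3257 bp at 189652230 to 189655486, close to the upper gene limit on the Smyd2 side. Ptpn14 and Smyd2 are read toward each other in the RefSeq table, so their starts lie at the outer ends of the pair. Whether the WT regions at those ends cover the starts was not analysed here.

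The other high or long regions lay between these. A WT region of 2861 bp at 189494239 to 189497099 scored 13.6, and one of 835 bp at 189470347 to 189471181 scored 11.8. The fifth longest, 2501 bp at 189487426 to 189489926, scored 7.82. The first WT region of the block, at 189435639 to 189436116, was 478 bp long and scored 5.74. Its score was close to the block's median, so the block began with an ordinary region and ended with one of its strongest.

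The WT regions were unequal in size, and a few long ones carried most of the covered length. The 5 longest made up 57.6% of the WT length of the block, and 17 of the 31 were shorter than 500 bp. WT regions of the block had a median length of 478 bp, with quartiles of 332 and 1277 bp, against 428 bp (303 and 695 bp) in the 5082 other autosomal WT regions. Regions over 1000 bp made up 9 of 31 (29.0%) here and 14.05% of the other autosomal WT regions. Scores were close to those elsewhere. The median score was 5.64 (quartiles 4.70 and 8.06) in the block and 5.30 (4.11 and 8.21) in the other autosomal WT regions. A score of at least 10 was held by 6 of 31 (19.4%) and by 16.8% of the others. Longer regions scored higher, with a Spearman correlation of 0.65 over the 31 WT regions and 0.60 over the 5082 others, a description across regions of the same pooled comparison.

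**Figure D2:**
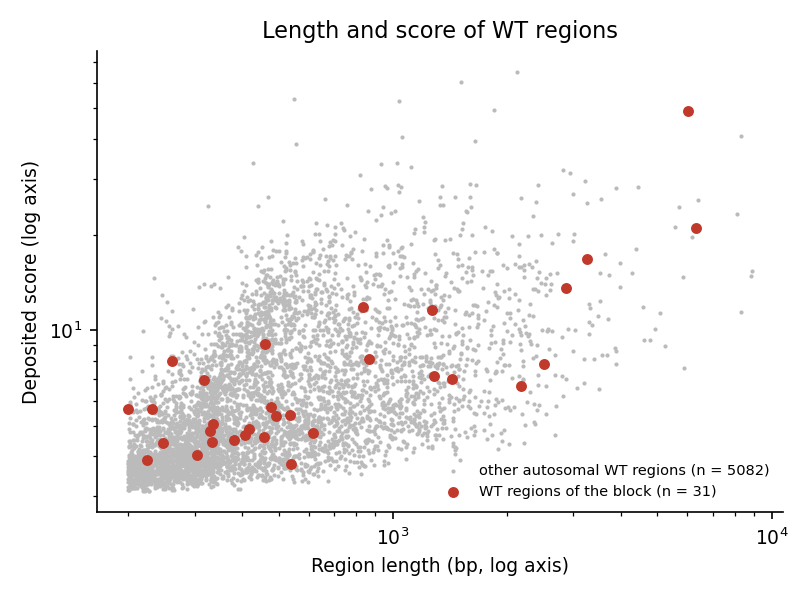
Length (bp, log axis) and deposited score (log axis) of the 31 WT regions of the block (red) and of 5082 other autosomal WT regions (grey). Most block regions lie among the others, while the 2 longest, of 6002 and 6335 bp, lie at the long end of the whole list.

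The spacing was dense. Gaps between successive WT regions had a median of 899 bp (quartiles 339 and 5317 bp), against 120.8 kb (11.6 and 413.7 kb) over all autosomes. Of the 30 gaps in the block, 15 (50%) were at most 1 kb, as were 15.9% of autosomal gaps. The smallest gap was 101 bp in the block and on the autosomes alike, and the shortest WT region was 200 bp in both. Only 6 gaps exceeded 10 kb, and they divided the block into 7 strings, a division made after the values were seen.

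The first string was the single region of 478 bp. The second, at 189448745 to 189471181, held 5 WT regions that covered 7747 bp and included the highest score. The third, at 189487426 to 189497099, held 3 regions that covered 60.2% of its 9674 bp. The fourth was the largest. It held 12 WT regions between 189512011 and 189533440 that covered 14278 bp, 39.2% of the WT length of the block, and 66.6% of its own span. The fifth, at 189545868 to 189557464, held 6 regions with scores no higher than 6.99. The sixth was a single region of 305 bp with a score of 4.05 at 189569435 to 189569739. A gap of 79969 bp, the longest in the block, then led to the seventh string of 3 regions at 189649709 to 189655486.

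Common regions were short, and most lay in 1 string. In order along the chromosome, 11 WT regions came first, then 2 common, 6 WT, 1 common, 2 WT, 2 common, 3 WT, 1 common, 6 WT, 1 common and 3 WT regions. Of the 7 common regions inside the block, 5 lay in the fourth string, 1 in the fifth, and 1 in the long gap before the last string. The strings at 189448745 to 189471181, at 189487426 to 189497099 and at 189649709 to 189655486 held none, and they include the WT regions at both outer ends of the gene pair. The lengths of the 7 were 237 to 524 bp (median 318 bp), against a median of 866 bp for 42471 autosomal common regions. Their scores were 2.70, 2.22, 1.71, 0.945, 1.18, 0.812 and 0.0361 in order. The first 6 were all above the autosomal median of 0.522, and the first, at 189514202 to 189514438, was exceeded by 68 autosomal common regions. The last, at 189599496 to 189599814, scored near the bottom of the list.

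Few WT regions of the block touched a common region. A common region was in contact with 4 of 31 (12.9%, 95% Wilson interval 5.13 to 28.9%), against 67.7% of autosomal WT regions (66.4 to 68.9%). Within 1 kb the shares were 29.0% (16.1 to 46.6%) and 74.0% (72.8 to 75.2%). Only counting error enters these intervals, and they take each region as independent, which neighbours in 1 string are not. Of the 4 in contact, 3 shared sequence with common regions. The WT region at 189513343 to 189515521 enclosed the 237 bp of the highest-scoring common region and shared 223 bp with the next one. The other 2 WT regions shared 20 and 97 bp with 1 common region each. Overlap of at least 1 bp was listed for 56.6% of autosomal WT regions, so rows of these lists are not exclusive stretches.

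The limits of the block differed in kind on its 2 sides. On the Cenpf side, a common region of 3691 bp at 189418272 to 189421962 (score 0.386) ended 13.7 kb before the first WT region. The 2 remaining common regions of the interval lay 97.1 and 94.7 kb before the block, with scores of 0.262 and 1.58. The nearest WT regions on that side were 3 short ones ending at 188732630, 703 kb away, with scores of 3.42 to 4.26. On the Prox1 side, no row of any list lay in the next 244 kb. Then came 2 more WT regions, outside the interval. One was 6386 bp long with a score of 25.6 at 189899722 to 189906107, and the other 1563 bp long with a score of 15.2 at 189906280 to 189907842. Together they covered 7949 bp, with no common region between them and the block. The next common region was 986 kb beyond the block.

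KD regions were distant on both sides. The last one before the block, at 185061645 to 185061996, was 4.37 Mb away, and the first one after it, at 190631478 to 190631758, was 976 kb away. Their scores were 3.62 and 4.21, in a list whose scores start at 3.08. The distance from a WT region of the block to the nearest KD region had a median of 1105 kb. The median was 186.2 kb (quartiles 60.5 and 421.5 kb) for WT regions of chromosome 1, the block included. For autosomal WT regions it was 93.9 kb (quartiles 26.0 and 250.03 kb). All 31 distances of the block run to the same KD region, the first one after it. The lack of KD regions was part of the choice of the block, so these distances describe that choice. Of 5113 autosomal WT regions, 280 (5.48%) were 976 kb or more from a KD region, the 31 of the block included. Per Mb, KD and common regions were fewer around the block than over the autosomes, and WT regions were not. The megabase before the block held 0 KD, 3 WT and 9 common regions, and the megabase after it 2 KD, 2 WT and 1 common region. The 3 WT regions lay together at 188730368 to 188732630 and the 2 at 189899722 to 189907842. Elsewhere these flanks held no WT region. The autosomes as a whole held 6.00 KD, 2.08 WT and 17.3 common regions per Mb. The block held WT regions at 141.0 and common regions at 31.8 per Mb.

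**Figure D3:**
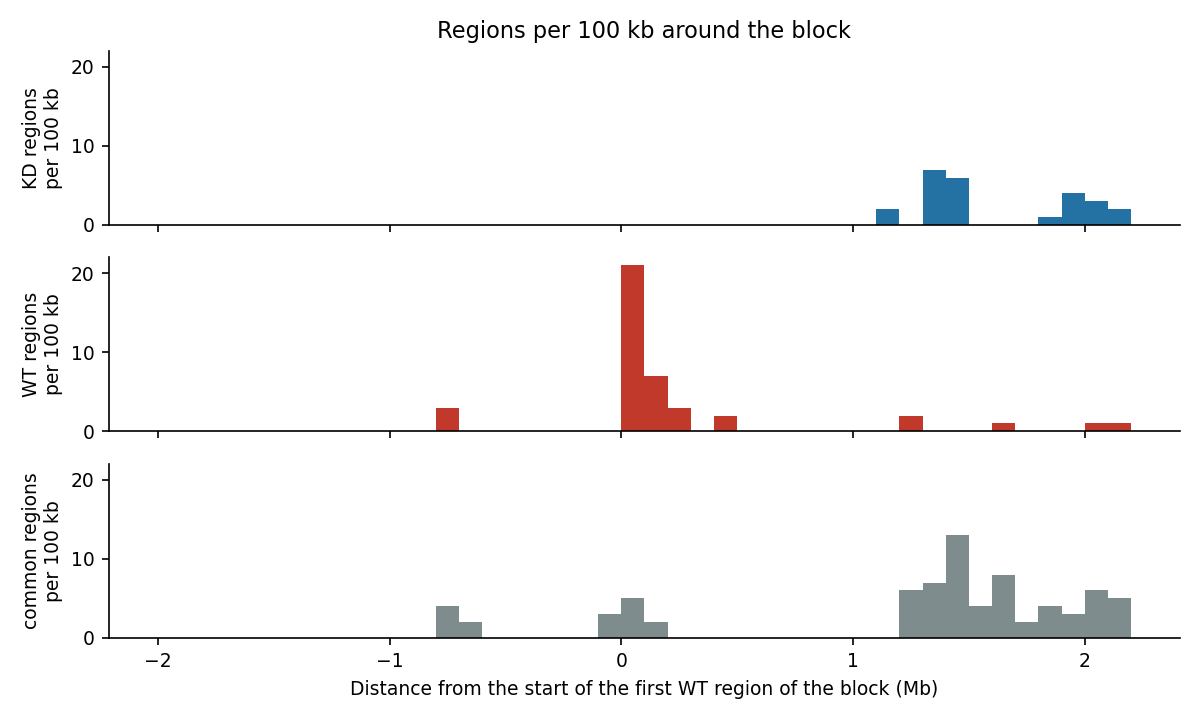
KD, WT and common regions per 100 kb (3 panels, same vertical scale) against distance in Mb from the start of the first WT region of the block. The first 100 kb of the block hold 21 WT regions, and no KD region appears in the 2 Mb before it or the first 1.1 Mb after its start.

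Among the autosomes, the run of WT regions through the block had the most regions. A run was counted as successive WT regions with no KD region between them, whatever the gaps and common regions. There were 2202 such runs, of which 53.8% were single regions, 95% had at most 7 regions and 46 had 10 or more. The run through the block had 41 WT regions, from 186436224 to 189907842. It took in 8 regions before the block and the 2 beyond it, and spanned 3.47 Mb, while 33 runs spanned more, up to 11.3 Mb. The next runs had 37 WT regions on chromosome 7 (103410858 to 106129991), 31 on chromosome 10 (82821637 to 83380993), 25 on chromosome 8 (86281536 to 87483717) and 20 on chromosome 7 (106215378 to 107249125). On the 18 other autosomes the largest number of WT regions in a run had a median of 12 and ranged from 5 to 37. The 31 regions of the block alone would place level with the chromosome 10 run, which held as many in 559.4 kb. The rank changed with a score minimum, which removes weak KD regions as well as weak WT regions. With only regions scoring at least 5, the run through the block had 26 WT regions and 1 other autosomal run had more. At a minimum of 10 it had 9, with 4 runs above it and 4 level with it.

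The block also led in number of WT regions with a limit of 20 kb on gaps. With a gap over 20 kb also ending a run, 3712 runs remained, 5 of them with 10 or more WT regions. The block headed them with 28 WT regions in 134.1 kb, which covered 32145 bp and took in 6 common regions. The chromosome 10 run followed with 25 in 84.2 kb, covering 22039 bp, with 16 common regions and a median score of 5.62 against 5.69 here. A run of 14 on chromosome 7 at 103935171 to 103965708 came next, with no common region and a median score of 8.81. The other 2 had 10 each, on chromosome 1 (90081225 to 90144165) and chromosome 12 (112296569 to 112330806). The run of the block was not the most compact of the 5, with 4.79 kb of span per WT region. The values were 3.37 kb on chromosome 10, 2.18 kb on chromosome 7, 3.42 kb on chromosome 12 and 6.29 kb in the other chromosome 1 run. Over short distances the block was not the densest. Its tightest 10 successive WT regions took 17.7 kb, and 3 stretches elsewhere were at least as tight, down to 12.8 kb on chromosome 7. Stretches were counted from each WT region in turn and overlap, so these 3 need not be separate places. For 20 successive WT regions the block needed 64.0 kb, and the tightest stretch elsewhere, on chromosome 10, needed 74.4 kb. For 25 the order was reversed. The chromosome 10 run took 84.2 kb, and the tightest 25 of the block ran from 189458259 to 189557464, a longer span. For 31, the block took 219.8 kb and the tightest stretch elsewhere 559.4 kb.

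In fixed windows the order depended on their start and size. Of 6030 autosomal windows of 200 kb with any region, the one that held most of the block had 28 WT and 0 KD regions. The richest other window without a KD region had 20 WT regions, and 10 other windows had 10 or more WT regions and no KD region. Windows with at least 1 WT region and no KD region were common, 1305 of them outside the block. With the windows shifted by 100 kb the block was divided, its richer window held 22 WT regions, and 1 other window, on chromosome 10, held 28. With windows of 500 kb the richer window of the block held 24 WT regions, and a window on chromosome 10 held 30 WT regions and 1 KD region. Runs of KD regions as long were more frequent. Ended by a WT region and with no gap limit, 27 of 2203 autosomal KD runs had 41 or more regions, up to 108. With the same gap limit of 20 kb, 7 of 5912 autosomal KD runs had 28 or more regions, up to 45 on chromosome 15. The lists held 14734 autosomal KD regions against 5113 WT regions.

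**Figure D4:**
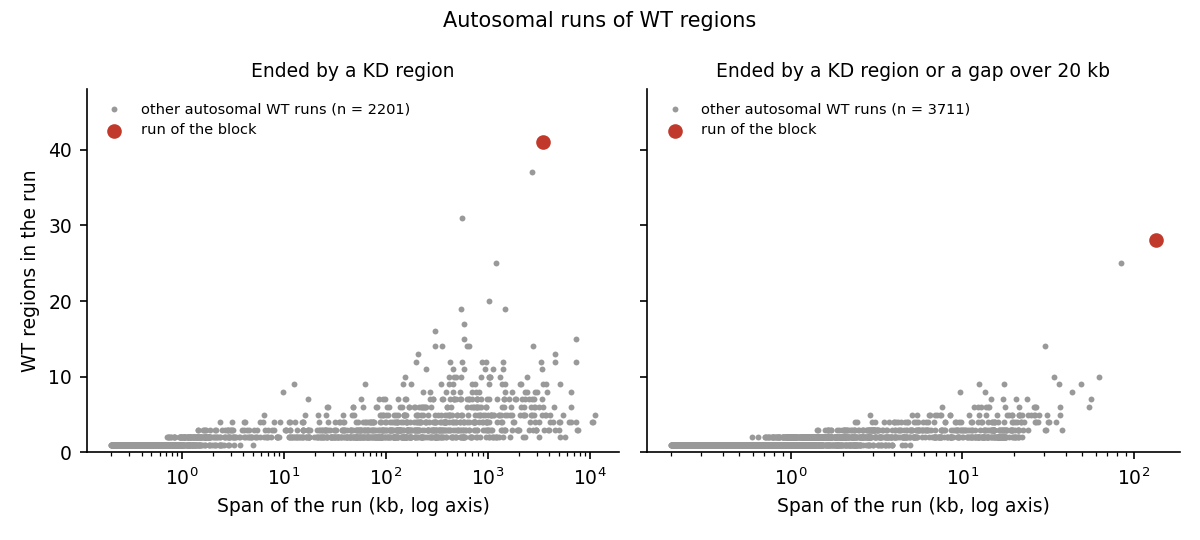
Number of WT regions in each autosomal run against its span (kb, log axis), with runs ended by a KD region (left) or also by a gap over 20 kb (right). The run through the block (red) has 41 regions on the left and 28 on the right, the most in both panels, and the next has 37 and 25.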

How the data were processed

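The tools named in the submitters' processing notes are MACS2 2.2.6, SAMtools 1.6 and Bowtie2 2.2.9, with the build GRCm39. Settings, filters and pooling were not stated there. As deposited by the authors, the data are 3 lists of regions, each with a position and a score, per the file headers for regions unique to the knockdown, unique to the wild type and common. No header states how close regions were joined. If an interrupted stretch is listed as several regions, counts of successive regions rise with the interruptions, so joined counts were also computed. Columns with values per library number 0, and depth is unknown.

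Rows overlapping the interval were taken with Python 3.11.15, pandas 2.3.3 and numpy 2.4.6, with scipy 1.17.1 for correlations and the interval of a median and matplotlib 3.10.9 for plots. Positions are 1-based. Gaps, runs and joins were checked on simulated regions with planted runs, and windows only for their total of WT regions. In all, 33 of 33 checks passed. The placement and shift of windows were not checked in this way. A region was counted in the window that holds its midpoint. Shares have 95% Wilson intervals. No test was run, since the contrast that chose the block is the one described and the lists give no value per replicate.

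The interval, its genes and the lists were chosen with earlier results of these data known. The rule for single regions named the 5 highest scores, the 5 longest, the first and last WT region, the nearest regions outside, and the 5 autosomal runs with the most WT regions. The strings of the block, the tightest stretches, the distances to KD regions and the KD runs were added after seeing the data. Alternatives were score and length minimums, joining, other ends of a run, other windows and other gaps. The gene and promoter tables are for GRCm38.p6 and were used for names, order and promoter sequence. Both genes matched by symbol. Regions in exons or introns, the preset Hippo and SMYD gene lists and the sequence of the regions were therefore not analysed here.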

Additional observations from a re-analysis of the deposited data

How the results depend on the processing

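The run through the block kept the most WT regions of all with regions within 1 kb joined, with a gap over 20 kb ending a run, and with X added. With a gap over 50 kb ending a run it tied with 1 other at 28, and under the other alternatives at least 1 run had more. It had 26 WT regions at a score of at least 5, 9 at a score of at least 10, 20 at a length of at least 500 bp, 20 after joining and 11 where a common region also ended it. Other autosomal runs with as many then numbered 1, 8, 3, 0 and 1. The span of 3471619 bp became 134101 bp under either gap limit, 79883 bp with common regions as ends and 6538475 bp at 500 bp. Shifted windows gave 1 other window as rich. The median score was 7.97 at 500 bp, the median gap 5413 bp after joining, and 1 common region inside the block reached 500 bp. WT regions near a common one made up 12.9% by contact and 54.8% within 5 kb. In all, 12 of 32 alternative values stayed within 1.5 times a count or within the interval of a median or share; why the others moved was not tested. No paired analysis was possible because no column gives a value for a replicate, and none could be left out. Gene positions and sequence composition were not run, and what depth limits cannot be stated.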
